A study of Homo sapiens with 12 samples.

Results

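The genes of fatty acid synthesis were followed in RCC4 cells, an established line derived from a clear cell renal carcinoma, after knockdown of MESH1, of ATF4 or of both. The set comprised 10 genes taken by name: SLC25A1, ACLY, ACACA, FASN, SCD, ELOVL5, FADS1, FADS2, ACSL3 and SREBF1. A gene was read from every probe set, a group of short probes against a transcript, that the platform table ties to that symbol alone, and its value is the mean of those probe sets. This gave values for 8 of the 10 genes from 17 probe sets, out of 11963 genes and 22277 probe sets in the whole series. The 3 probe sets of FADS1 also carry a second gene symbol and 0 probe sets were tied to ACSL3, so these genes were not analysed here.

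The 12 Affymetrix arrays fall into 4 groups of 3 biological replicates. The siMESH1+siATF4 cells received siRNA against both genes, the siMESH1 cells a single siRNA against MESH1, the siATF4 cells a pool of siRNAs against ATF4, and the siNT cells a non-targeting control. Every culture received 40 pmol of siRNA with a lipid reagent and was collected after 72 h, and how the 40 pmol was divided in the siMESH1+siATF4 cells is not given in the sources used here. Because MESH1 was targeted by a single siRNA, effects of that siRNA on other transcripts cannot be told apart from those of MESH1 loss. The arrays read RNA pooled over a whole culture, so less RNA in every cell and fewer cells that express a gene cannot be told apart.

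Cells make fatty acids from citrate. SLC25A1 carries citrate out of the mitochondrion, and ACLY, ATP citrate lyase, cleaves it into acetyl-CoA and oxaloacetate in the cytosol. ACACA carboxylates acetyl-CoA to malonyl-CoA, and FASN builds palmitate from malonyl-CoA with reducing power from NADPH. SCD then inserts the first double bond, ELOVL5 lengthens polyunsaturated chains, and FADS1 and FADS2 desaturate them further. SREBF1 encodes SREBP-1, the transcription factor that drives much of this pathway. Renal carcinoma of the clear cell type is named for the lipid and glycogen that its cells store. MESH1, encoded by HDDC3, is a phosphatase of cytosolic NADPH, the reductant that FASN uses, and ATF4 is the main transcription factor of the integrated stress response.

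The deposited values are log2 signals relative to the siNT mean of each probe set, so they are differences from siNT and carry no absolute level. Levels of different genes therefore cannot be compared, and the labelled cell type could not be checked by the level of its markers. Over all probe sets but the 62 controls the array medians lay between -0.009 and 0.031. ATF4 averaged -2.32 ± 0.12 in siMESH1+siATF4 cells, -0.03 ± 0.07 in siMESH1 cells, -2.31 ± 0.02 in siATF4 cells and 0 ± 0.10 in siNT cells (SD, n = 3 each), a 5.01-fold fall with both siRNAs and a 4.95-fold fall with siATF4 alone. HDDC3 had 0 named probe sets, so the knockdown of MESH1 has no readout here. Of 12 measured housekeeping genes, 1 was called lower in siMESH1+siATF4, 3 in siMESH1 and 2 in siATF4 cells vs siNT, against 5.25%, 5.37% and 4.03% of all genes. The 3 in siMESH1 cells were TFRC (-1.17), HPRT1 (-0.66) and PGK1 (-0.53), named after their values were seen. The mean of the 12 was -0.21 in siMESH1+siATF4 cells, -0.31 in siMESH1 cells and -0.16 in siATF4 cells. Their medians were smaller in size, at -0.089, -0.179 and -0.035 in the same order. The scaling used the mean, on which the largest falls weigh most, and no scaling on the median of the 12 was run. Scaling the arrays on these genes moves the median of all genes to 0.22, 0.34 and 0.18 in the same comparisons with siNT, against 0.01, 0.03 and 0.02 as deposited. A gene was called changed when its limma p, adjusted by Benjamini-Hochberg across the 11963 genes, was under 0.05 and its log2 change was at least 0.5, the fold minimum.

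ACLY was the member with the largest response to MESH1 knockdown. Its values on the 3 arrays of each group were -1.04, -0.98 and -1.01 in siMESH1+siATF4 cells, -1.47, -1.41 and -1.48 in siMESH1 cells, -0.39, -0.38 and -0.27 in siATF4 cells, and 0.03, 0.01 and -0.04 in siNT cells. The groups did not overlap and stood in the order siMESH1, siMESH1+siATF4, siATF4 and siNT from the lowest to the highest. ACLY fell 2.74-fold in siMESH1 vs siNT (log2 change -1.45, SE 0.05, adjusted p = 6.9e-10), the 99th lowest change among 11963 genes. It fell 2.01-fold in siMESH1+siATF4 vs siNT (-1.01, SE 0.05, adjusted p = 7e-09). Every neighbouring pair in that order differed beyond the spread of the arrays, by 0.45 between siMESH1+siATF4 and siMESH1 cells, by -0.66 between siMESH1+siATF4 and siATF4 cells, and by -0.35 between siATF4 and siNT cells. The first and the last of these passed the adjusted p (2.4e-05 and 0.00017) and stayed under the fold minimum, while the middle one was called (adjusted p = 5.5e-06). ACLY is a gene that the study itself singled out in these cells, so its fall is no independent evidence for the pathway. By quantitative PCR relative to β-actin, the study reported that concurrent ATF4 knockdown left the repression of ACLY unaffected. On the arrays siMESH1+siATF4 cells lay above siMESH1 cells by 0.45, under the fold minimum. What separates these readings was not tested.

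The 3 probe sets of ACLY moved the same way to different extents. On probe set 201128_s_at the arrays read -1.24, -1.33 and -1.24 in siMESH1+siATF4 cells, -1.98, -1.90 and -1.94 in siMESH1 cells, -0.29, -0.36 and -0.27 in siATF4 cells, and 0.05, -0.01 and -0.05 in siNT cells. This was the widest of the 3 responses, with a log2 change of -1.94 in siMESH1 vs siNT. The change in siMESH1 vs siNT was -1.10 for 201127_s_at and -1.32 for 210337_s_at, and all 3 were called. In siMESH1+siATF4 vs siMESH1 the 3 changes were 0.67 for 201128_s_at, 0.35 for 201127_s_at and 0.31 for 210337_s_at, of which the first was called. The interaction, the difference between the siMESH1 effects with and without siATF4, was 0.98 for 201128_s_at and 0.70 for each of the others, all called. All 3 names end in _s_at, the manufacturer's mark for probes shared between transcripts, and no ACLY value is left when such probe sets are dropped.

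**Figure D1:**
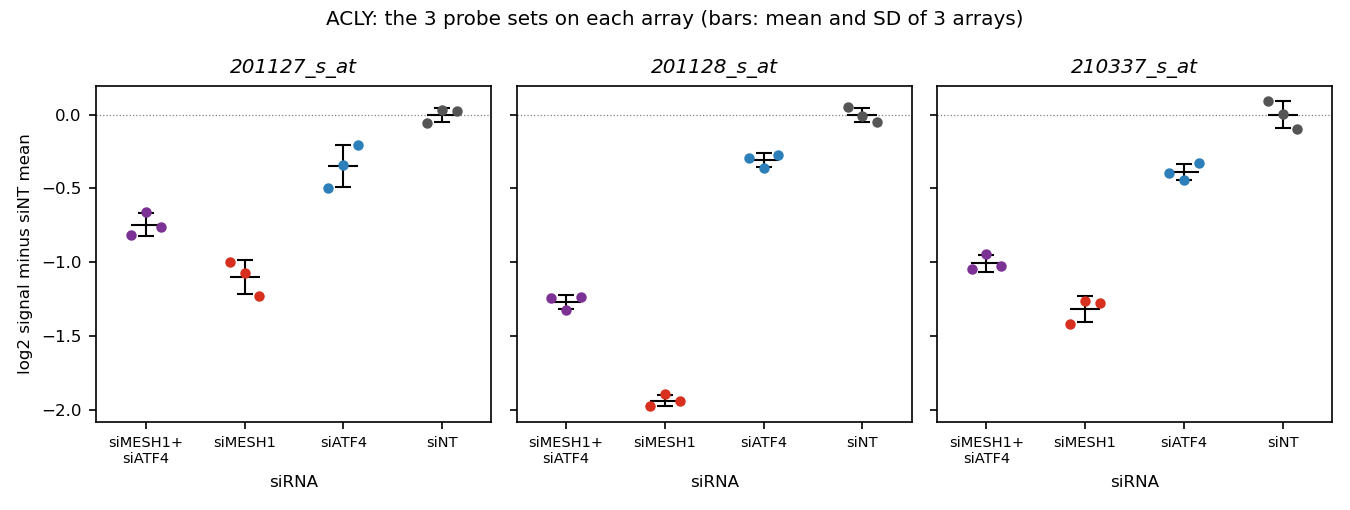
Log2 difference from the siNT mean (vertical axis) for the 3 ACLY probe sets in the 4 siRNA groups (horizontal axis). Points are arrays and bars show the mean and SD of 3 arrays. Each probe set was lowest in siMESH1 cells, with means of -1.10, -1.94 and -1.32, and higher in siMESH1+siATF4 cells, with means of -0.75, -1.27 and -1.01.

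SLC25A1, which supplies ACLY with citrate, was the member with the next largest fall. Its single probe set read -0.13, -0.38 and -0.30 in siMESH1+siATF4 cells, -0.79, -0.67 and -0.80 in siMESH1 cells, -0.01, 0.13 and 0.21 in siATF4 cells, and 0.08, 0.04 and -0.12 in siNT cells. The siMESH1 arrays lay below all others and the siMESH1+siATF4 arrays came next, while the siATF4 and siNT arrays overlapped. The probe set, 210010_s_at, carries the mark of shared probes described for ACLY. SLC25A1 fell 1.69-fold in siMESH1 vs siNT (-0.755, SE 0.08, adjusted p = 1e-05). It was -0.27 in siMESH1+siATF4 vs siNT (adjusted p = 0.019) and 0.49 in siMESH1+siATF4 vs siMESH1 (95% interval 0.31 to 0.66, adjusted p = 0.00055), both under the fold minimum. The second of these differences passed the fold minimum when siMESH1 replicate 2 (0.53), siMESH1+siATF4 replicate 2 (0.54) or siMESH1+siATF4 replicate 3 (0.50) was left out. Scaled on the housekeeping genes, its change in siMESH1 vs siNT was -0.45 and no longer called.

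The promoters of ACLY and SLC25A1, genes of adjacent steps whose RNA fell together in siMESH1 cells, are shown for the elements they hold. Each is the 250 bases before an annotated start of transcription in RefSeq (GRCh38.p14), ACLY at chr17:41919023-41919272 and SLC25A1 at chr22:19178737-19178986, both on the minus strand, with CCAAT boxes (CCAAT, bound by NF-Y) and GC boxes (GGGCGG, bound by SP1) of either strand in capitals.
ACLY: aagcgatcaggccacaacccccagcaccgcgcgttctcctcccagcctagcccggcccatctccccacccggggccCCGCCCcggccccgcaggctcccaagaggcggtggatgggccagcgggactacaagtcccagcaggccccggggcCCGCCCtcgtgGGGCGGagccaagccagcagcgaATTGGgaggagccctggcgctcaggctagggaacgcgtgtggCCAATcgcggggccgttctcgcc
SLC25A1: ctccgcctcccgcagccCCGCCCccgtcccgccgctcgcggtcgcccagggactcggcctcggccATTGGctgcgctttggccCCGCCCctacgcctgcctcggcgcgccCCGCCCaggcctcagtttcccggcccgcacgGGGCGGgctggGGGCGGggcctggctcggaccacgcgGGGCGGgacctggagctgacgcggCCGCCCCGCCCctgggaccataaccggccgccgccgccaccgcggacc
The ACLY window held 2 CCAAT boxes, 65 and 23 bases before the start, and 3 GC boxes, and the SLC25A1 window held 1 CCAAT box and 8 GC boxes, of which the last pair overlap. Among 35116 promoter windows of the same length, 32% held a CCAAT box and 42.6% a GC box. Neither window held a match to the sterol regulatory element TCACNCCAC (0.883% of all windows), to the C/EBP-ATF response element TGATGNAA (3.14%) or to the E-box CANNTG (61.8%). A second ACLY window, from another annotated start and not printed, held 2 CCAAT boxes and 4 GC boxes and likewise none of the other elements. The spacing of its matches shows that it overlaps the first window, so it mostly counts the same sites again. These boxes were not particular to members that fell. The SCD window held 2 CCAAT and 2 GC boxes and the ELOVL5 window 2 CCAAT boxes, while either FADS2 window held 0 CCAAT boxes. The absence of sterol regulatory and C/EBP-ATF elements was not particular to them either, as no window of any member held a match. FASN had no window in the reference used. A match is a run of letters and no test of binding.

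ACACA and FASN, the enzymes that commit acetyl-CoA to fatty acids and build the chain, were not called in any comparison. ACACA read -0.15, -0.11 and -0.16 in siMESH1+siATF4 cells, -0.17, -0.08 and -0.17 in siMESH1 cells, -0.28, -0.11 and -0.25 in siATF4 cells, and 0.01, 0.02 and -0.03 in siNT cells. The silenced groups overlapped one another and none overlapped siNT. ACACA was -0.21 in siATF4 vs siNT (adjusted p = 0.0089), -0.14 in siMESH1 vs siNT (adjusted p = 0.065) and -0.14 in siMESH1+siATF4 vs siNT (adjusted p = 0.058), and scaled on the housekeeping genes ACACA lay above siNT in siMESH1 (0.17) and siMESH1+siATF4 cells (0.07). FASN read -0.13, 0.04 and -0.08 in siMESH1+siATF4 cells, -0.15, -0.09 and 0.12 in siMESH1 cells, -0.07, -0.02 and -0.22 in siATF4 cells, and 0.06, -0.13 and 0.07 in siNT cells. All 4 FASN groups overlapped. Its change in siMESH1 vs siNT was -0.04 (95% interval -0.22 to 0.14), and it was 0.27 when scaled on the housekeeping genes. The 2 FASN probe sets differed in siATF4 vs siNT, at -0.31 (adjusted p = 0.01) for 212218_s_at and 0.10 (adjusted p = 0.65) for 217006_x_at.

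Among the enzymes that modify the finished chain, FADS2, the delta-6 desaturase of polyunsaturated synthesis, responded to MESH1 knockdown, and SCD and ELOVL5 were not called in any comparison. FADS2 read -0.16, 0.08 and -0.14 in siMESH1+siATF4 cells, -0.57, -0.53 and -0.42 in siMESH1 cells, -0.36, -0.20 and -0.12 in siATF4 cells, and -0.03, 0.00 and 0.03 in siNT cells. The siMESH1 arrays lay below all others, and the siMESH1+siATF4 arrays overlapped both the siATF4 and the siNT arrays. FADS2 fell 1.42-fold in siMESH1 vs siNT (-0.505, SE 0.077, adjusted p = 0.00021), just past the fold minimum. Its single probe set, 202218_s_at, carries the mark of shared probes described for ACLY. The call was lost without siMESH1 replicate 1 (-0.473), siMESH1 replicate 2 (-0.492) or siNT replicate 3 (-0.491), and when scaled on the housekeeping genes (-0.195). It was 0.43 in siMESH1+siATF4 vs siMESH1 (95% interval 0.27 to 0.60, adjusted p = 0.0009), under the fold minimum.

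SCD, the delta-9 desaturase, read 0.17, 0.27 and 0.10 in siMESH1+siATF4 cells, -0.01, 0.00 and -0.10 in siMESH1 cells, -0.13, -0.07 and 0.01 in siATF4 cells, and 0.05, 0.02 and -0.06 in siNT cells. The siMESH1+siATF4 arrays lay above all others, and the remaining groups overlapped. SCD was 0.24 in siMESH1+siATF4 vs siATF4 (adjusted p = 0.022), 0.21 vs siMESH1 (adjusted p = 0.018) and 0.18 vs siNT (adjusted p = 0.036), each under the fold minimum. ELOVL5 read 0.07, 0.14 and 0.04 in siMESH1+siATF4 cells, -0.10, -0.04 and -0.09 in siMESH1 cells, -0.06, 0.04 and 0.05 in siATF4 cells, and -0.11, 0.03 and 0.07 in siNT cells. Its siMESH1+siATF4 and siMESH1 arrays did not overlap, and every other pair of groups did. The difference of 0.16 between these groups missed the threshold (adjusted p = 0.055). It was largest on probe set 208788_at, at 0.38 (adjusted p = 0.0001), beside 0.19 for 215082_at (adjusted p = 0.18) and -0.10 for 214153_at (adjusted p = 0.58). In siMESH1 vs siNT 208788_at was -0.23 (adjusted p = 0.0036), and the others each had an adjusted p of 0.87.

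SREBF1, the regulator of the pathway, lay below siNT in siMESH1 cells, as ACLY did, with a smaller difference that was not called. It read -0.11, -0.18 and -0.18 in siMESH1+siATF4 cells, -0.26, -0.40 and -0.52 in siMESH1 cells, -0.22, -0.13 and -0.04 in siATF4 cells, and -0.05, 0.06 and -0.01 in siNT cells. The siMESH1 arrays lay below all others, and the siATF4 arrays overlapped those of siMESH1+siATF4 and of siNT. SREBF1 was -0.39 in siMESH1 vs siNT (SE 0.069, adjusted p = 0.00066), under the fold minimum, and -0.08 when scaled on the housekeeping genes. It was 0.24 in siMESH1+siATF4 vs siMESH1 (adjusted p = 0.021) and -0.16 in siMESH1+siATF4 vs siNT (adjusted p = 0.1), the second of which was 0.05 when scaled on the housekeeping genes.

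**Figure D2:**
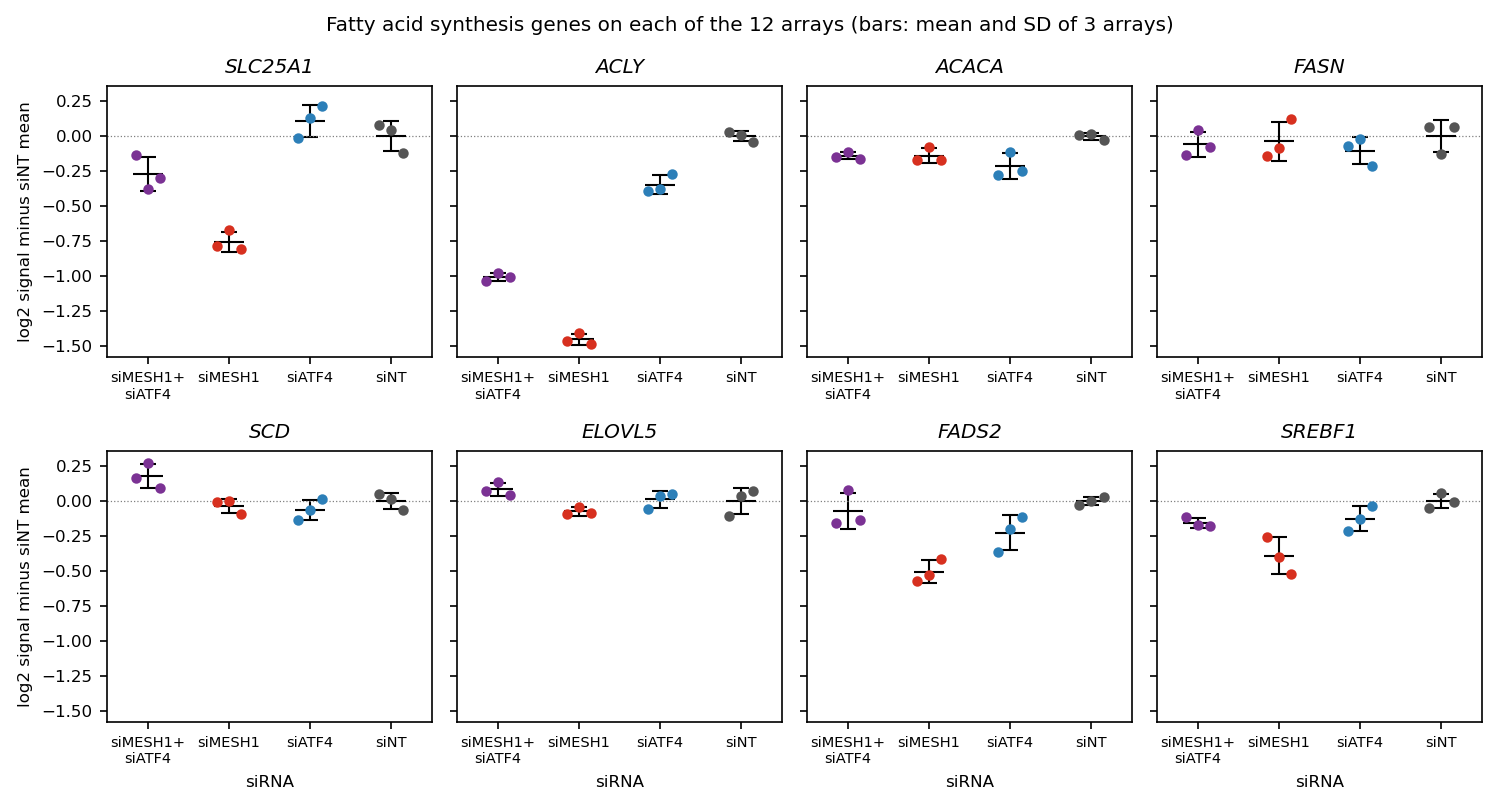
Log2 difference from the siNT mean (vertical axis, shared by all panels) of the 8 measured genes in the 4 siRNA groups (horizontal axis). Points are arrays and bars show the mean and SD of 3 arrays. As deposited, the siMESH1 arrays lay below every other array for SLC25A1, ACLY, FADS2 and SREBF1, and all 4 groups overlapped for FASN. The share of all genes whose siMESH1 arrays stood apart in this way was not computed. In siMESH1 vs siNT 33.6% of all genes passed the adjusted p in limma.

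The comparison of siMESH1 with siNT asked which genes of the pathway answered to MESH1 knockdown. The RNA of SLC25A1 (citrate export), ACLY (citrate cleavage) and FADS2 (polyunsaturated desaturation) fell, and that of SREBF1 was lower without reaching the fold minimum. The activity of these steps was not measured. In all, 3 of 8 measured genes were called lower and 0 higher, against 8.19% of all genes called, 5.37% lower and 2.82% higher. The members were chosen with earlier results of these data known. Counts of members, here and below, are therefore no independent evidence for the pathway. At any size of change, 4 of 8 passed the adjusted p, against 33.6% of all genes. The median change was -0.27 for the 8 genes and 0.03 for all genes. Scaled on the housekeeping genes, ACLY alone remained called (-1.14), and ACACA, FASN, SCD and ELOVL5 lay above siNT by 0.17 to 0.27. Under that scaling 21.2% of all genes were called, 11.8% of them lower, against 65.6% lower as deposited, and which scaling fits these cells was not tested.

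ATF4 knockdown alone left the RNA of the measured genes within the fold minimum. In siATF4 vs siNT, 0 of 8 genes were called in limma and 0 by the methods' t-test, and 3 had an unadjusted p under 0.05 (37.8% of all genes), against 6.52% of all genes called, 4.03% lower and 2.49% higher. At any size of change, 3 of 8 passed the adjusted p, against 28.6% of all genes. These were ACLY (-0.35, adjusted p = 0.00017), ACACA (-0.21, adjusted p = 0.0089) and FADS2 (-0.23, adjusted p = 0.043). SLC25A1 was 0.11 (95% interval -0.06 to 0.29). The median was -0.12 for the 8 genes and 0.02 for all genes.

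With both genes silenced, ACLY was the member called lower. In siMESH1+siATF4 vs siNT, 1 of 8 genes was called lower and 0 higher, against 9.65% of all genes called, 5.25% lower and 4.4% higher. Without the fold minimum, 3 of 8 passed the adjusted p, against 35.6% of all genes. Beside ACLY these were SLC25A1 (-0.27, adjusted p = 0.019) and SCD (0.18, adjusted p = 0.036), which stayed under the fold minimum. FADS2 was -0.07 (95% interval -0.24 to 0.10), and 0.14 when scaled on the housekeeping genes. The median was -0.11 for the 8 genes and 0.01 for all genes.

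**Figure D3:**
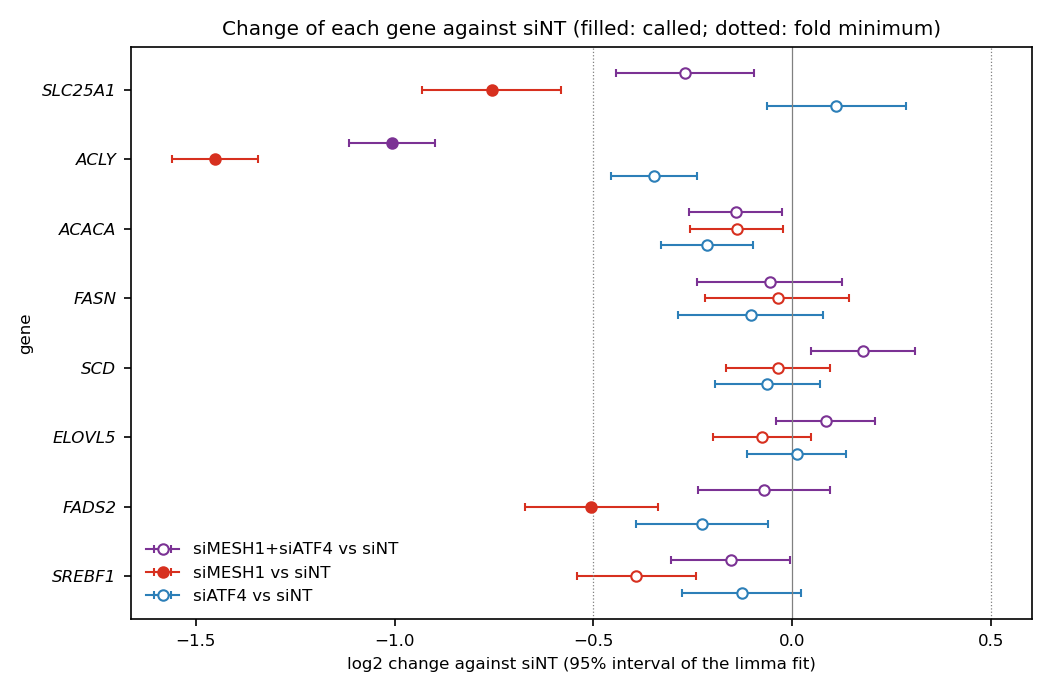
Log2 change against siNT (horizontal axis) of the 8 measured genes (vertical axis) in siMESH1+siATF4, siMESH1 and siATF4 cells, with the 95% interval of the limma fit. Filled points were called and dotted lines mark the fold minimum of 0.5. ACLY was called in siMESH1+siATF4 cells (-1.01) and in siMESH1 cells (-1.45), and SLC25A1 (-0.755) and FADS2 (-0.505) in siMESH1 cells, as deposited.

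Whether ATF4 knockdown altered the response to MESH1 knockdown was first asked by setting siMESH1+siATF4 against siMESH1 cells. How the siRNA was divided in siMESH1+siATF4 cells is not given, and MESH1 has no readout. A lower dose of siMESH1 there and the loss of ATF4 therefore cannot be told apart, here or in the interaction below. Higher values in siMESH1+siATF4 cells were found for ACLY (0.45), SLC25A1 (0.49), FADS2 (0.43), SREBF1 (0.24) and SCD (0.21), with adjusted p between 2.4e-05 and 0.021. None reached the fold minimum. Thus 0 of 8 genes were called in limma and 0 by the methods' t-test, 6 had an unadjusted p under 0.05 (37.6% of all genes), and 6.1% of all genes were called, 2.68% lower and 3.42% higher. The adjusted p alone was passed by 5 of 8, against 28% of all genes. The median was 0.23 for the 8 genes and -0.01 for all genes. The 95% interval of the ACLY difference was 0.34 to 0.55, so a change as large as the fold minimum lies inside it.

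Against siATF4 cells, siMESH1+siATF4 cells had lower ACLY (-0.66, 1.58-fold, adjusted p = 5.5e-06), the 83rd lowest change among all genes. It was the 1 gene called of 8, against 1.63% of all genes called, 1.28% lower and 0.351% higher. At any size of change, 3 of 8 passed the adjusted p, against 11.7% of all genes. SLC25A1 was -0.38 (adjusted p = 0.0084) and SCD 0.24 (adjusted p = 0.022), under the fold minimum. Set directly against each other, siMESH1 cells had lower ACLY (-1.11, 2.15-fold, adjusted p = 7.6e-09) and lower SLC25A1 (-0.87, 1.82-fold, adjusted p = 3e-06) than siATF4 cells. These were the 2 genes called of 8, against 8.66% of all genes called, 4.75% lower and 3.91% higher. Without the fold minimum, 4 of 8 passed the adjusted p, against 33.5% of all genes. FADS2 (-0.28, adjusted p = 0.013) and SREBF1 (-0.27, adjusted p = 0.0095) were lower in siMESH1 cells and under the fold minimum.

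Whether the effect of siMESH1 differed with and without siATF4 was tested directly by the interaction, in which the change in siMESH1 vs siNT is subtracted from that in siMESH1+siATF4 vs siATF4. For ACLY, siMESH1 gave -0.66 in the presence of siATF4 and -1.45 in its absence, an interaction of 0.79 (SE 0.07, 95% interval 0.64 to 0.95, adjusted p = 1.5e-05). For FADS2, siMESH1 gave 0.16 in the presence of siATF4 and -0.505 in its absence, an interaction of 0.66 (SE 0.108, adjusted p = 0.0015). These 2 of 8 genes were called higher and 0 lower, against 4.31% of all genes called, 3.46% higher and 0.853% lower. The adjusted p alone was passed by 3 of 8, against 11.9% of all genes. SREBF1 had an interaction of 0.36 (adjusted p = 0.03), under the fold minimum. SLC25A1 had 0.37 (95% interval 0.13 to 0.62, adjusted p = 0.051), so a difference between its siMESH1 effects of -0.38 with siATF4 and -0.755 without was not shown. All 8 genes had an interaction above 0 as deposited, between 0.09 and 0.79. The share of all genes above 0 was not computed, and the median of all genes was -0.02. The 95% intervals of FASN (-0.172 to 0.342) and ELOVL5 (-0.026 to 0.323) included 0. Scaled on the housekeeping genes, ACLY (0.53) was called, FADS2 (0.40) was not, and ACACA (-0.05), FASN (-0.17) and ELOVL5 (-0.11) lay below 0.

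**Figure D4:**
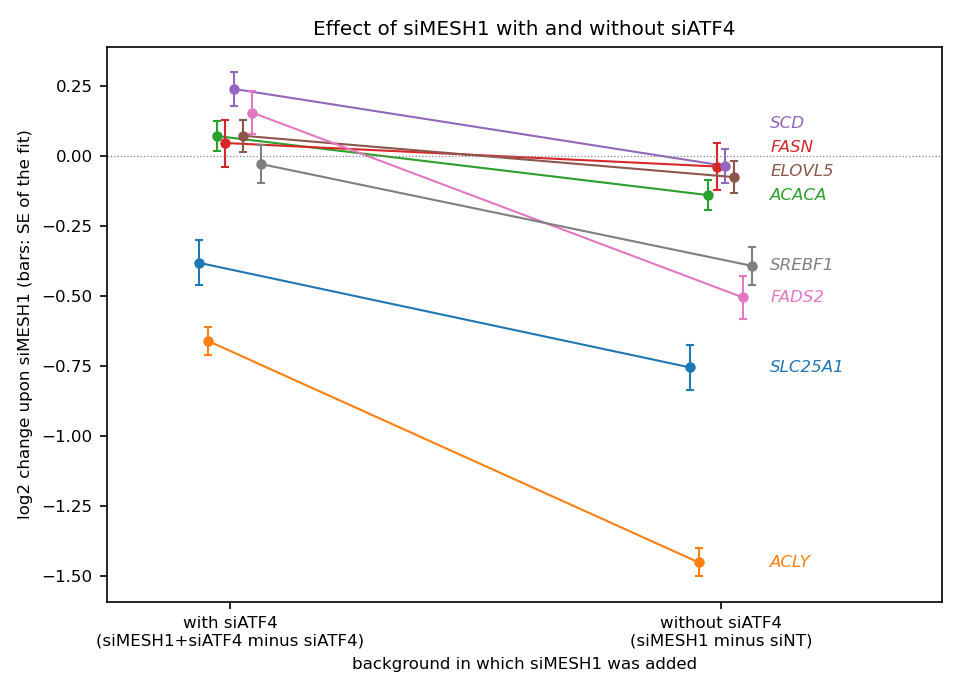
Log2 change upon siMESH1 (vertical axis) in cells with siATF4, from siMESH1+siATF4 minus siATF4, and in cells without it, from siMESH1 minus siNT (horizontal axis), for the 8 measured genes as deposited. Bars show the SE of the fit and lines join the values of a gene. The ACLY values were -0.66 in the presence of siATF4 and -1.45 in its absence, and the FADS2 values were 0.16 in its presence and -0.505 in its absence.

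Over the 12 arrays, the genes whose values were most like those of ACLY were GRPEL1, a nucleotide exchange factor of mitochondrial HSP70, HMCES, a protector of abasic DNA sites, CD44, the hyaluronan receptor, YIPF6, a Golgi membrane protein, and HLTF, a DNA translocase of damage tolerance. Their Pearson correlations with ACLY were 0.995, 0.994, 0.993, 0.992 and 0.991, and the Spearman coefficients lay between 0.93 and 0.972. HLTF averaged -0.74 in siMESH1+siATF4 cells, -1.26 in siMESH1 cells and -0.25 in siATF4 cells, in the order seen for ACLY. The most opposed were MXI1, a MYC antagonist, SLC41A3, of a magnesium transporter family, EPS15, an endocytic adaptor, EFR3A, an anchor of a lipid kinase at the plasma membrane, and VGLL4, a cofactor of TEAD factors, with Pearson correlations between -0.99 and -0.979. SLC41A3 averaged 0.88 in siMESH1+siATF4 cells, 1.24 in siMESH1 cells and 0.21 in siATF4 cells. Within the pathway the Pearson correlation with ACLY was 0.89 for SLC25A1, 0.84 for SREBF1 and 0.685 for FADS2, and between -0.175 and 0.361 for SCD, FASN, ELOVL5 and ACACA. These are descriptions over arrays that share 4 groups, so they mostly restate the group means.

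The neighbouring pathways were read from lists of genes around the core enzymes. In the list of acetyl-CoA, citrate and malonyl-CoA supply, 15 of 19 genes were measured, and DLAT, the E2 subunit of pyruvate dehydrogenase, was the 1 gene called against siNT, in siMESH1 cells, beside 8.19% of all genes called. DLAT read -0.19, -0.20 and -0.23 in siMESH1+siATF4 cells, -0.67, -0.58 and -0.68 in siMESH1 cells, -0.12, -0.05 and -0.03 in siATF4 cells, and 0.02, 0.04 and -0.07 in siNT cells. Its siMESH1 arrays lay below all others, and it fell by 0.64 in siMESH1 vs siNT (adjusted p = 6.3e-07), with an interaction of 0.51 (adjusted p = 0.00046) that fell under the fold minimum without each of 6 arrays in turn (0.48 to 0.498). Scaled on the housekeeping genes, DLAT was -0.33 in siMESH1 vs siNT with an interaction of 0.25, and neither was called. The list's median was -0.12 in siMESH1+siATF4, -0.11 in siMESH1 and -0.14 in siATF4 cells vs siNT, and scaled on the housekeeping genes all 3 medians lay above 0, at 0.09, 0.20 and 0.02.

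Among the regulators that hold SREBP in the membrane or assist lipogenesis, 19 of 22 genes were measured, and as deposited those called against siNT were lower. INSIG2, which retains the SREBP complex in the endoplasmic reticulum, read -0.58, -0.66 and -0.53 in siMESH1+siATF4 cells, -1.004, -1.04 and -1.11 in siMESH1 cells, -0.11, -0.10 and -0.20 in siATF4 cells, and 0.01, 0.09 and -0.09 in siNT cells. It fell in siMESH1+siATF4 cells (-0.59) and in siMESH1 cells (-1.05), and the siATF4 value of -0.14 was not called. Under housekeeping scaling INSIG2 kept its call in siMESH1 cells (-0.74) and lost it in siMESH1+siATF4 cells (-0.38). INSIG1, its SREBP-induced relative, fell in all 3 silenced groups, by 0.75 in siMESH1+siATF4, by 0.58 in siMESH1 and by 0.62 in siATF4 cells vs siNT (adjusted p 1.9e-07, 2.5e-06 and 2e-06). Under the other scaling INSIG1 kept the first of these calls (-0.54) and lost those in siMESH1 (-0.27) and siATF4 cells (-0.46). MID1IP1, which promotes the polymerization of acetyl-CoA carboxylase, fell in siMESH1 cells (-0.84) and was -0.38 in siMESH1+siATF4 and -0.15 in siATF4 cells vs siNT. INSIG2 and MID1IP1 had interactions of 0.60 and 0.61 (adjusted p 0.00046 and 0.0011), in the direction of ACLY, which were 0.34 and 0.35 and not called when scaled on the housekeeping genes. Counts called lower in this list were 2 in siMESH1+siATF4, 3 in siMESH1 and 1 in siATF4 cells, with 0 higher, beside 5.25%, 5.37% and 4.03% of all genes called lower. Under housekeeping scaling they were 1, 2 and 0 lower with 3, 3 and 0 higher. Of all 11963 genes, 382, 300 and 318 were then called lower and 1408, 2239 and 729 higher. The list's median was 0.03 in siMESH1+siATF4, -0.02 in siMESH1 and 0.02 in siATF4 cells vs siNT, beside 0.01, 0.03 and 0.02 for all genes.

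Of the other elongases and desaturases, 13 of 17 were measured. FADS3, a desaturase neighbour of FADS2, rose in siMESH1+siATF4 (0.75) and in siATF4 cells (0.58) and was 0.08 in siMESH1 cells vs siNT. CYB5A, the cytochrome b5 that passes electrons to the desaturases, read 0.70, 0.74 and 0.60 in siMESH1+siATF4 cells, -0.27, -0.32 and -0.19 in siMESH1 cells, 0.54, 0.46 and 0.42 in siATF4 cells, and -0.01, -0.02 and 0.03 in siNT cells. CYB5A lay below siNT in siMESH1 cells and above it in the other silenced groups. It rose by 0.68 in siMESH1+siATF4 vs siNT (adjusted p = 7.7e-07) and by 0.94 vs siMESH1 (adjusted p = 1.2e-07), and scaled on the housekeeping genes its siMESH1 value vs siNT was 0.05. Without probe sets that may cross-hybridise, CYB5A was 0.37 vs siNT and 0.46 vs siMESH1 in siMESH1+siATF4 cells, neither called. The list had 2, 0 and 1 genes called higher in siMESH1+siATF4, siMESH1 and siATF4 cells vs siNT and 0 lower, beside 4.4%, 2.82% and 2.49% of all genes called higher.

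Of the other acyl-CoA synthetases, fatty acid carriers and thioesterases, 17 of 21 were measured. FABP5, a cytosolic fatty acid carrier, read -0.92, -0.94 and -1.03 in siMESH1+siATF4 cells, -0.90, -0.91 and -0.91 in siMESH1 cells, -0.45, -0.68 and -0.52 in siATF4 cells, and 0.01, 0.09 and -0.10 in siNT cells. It fell in all 3 silenced groups, by 0.96, 0.91 and 0.55, and the siATF4 call was lost when scaled on the housekeeping genes (-0.39) and without siATF4 replicate 2 (-0.48). ACSL4, which activates polyunsaturated fatty acids and is required for ferroptosis in many cells, read 0.16, 0.24 and 0.14 in siMESH1+siATF4 cells, 0.66, 0.81 and 0.59 in siMESH1 cells, -0.21, -0.55 and -0.48 in siATF4 cells, and 0.07, -0.33 and 0.26 in siNT cells. Its siMESH1 arrays lay above all others. ACSL4 rose by 0.69 in siMESH1 vs siNT (adjusted p = 0.001) and by 0.59 in siMESH1+siATF4 vs siATF4 (adjusted p = 0.01). Its interaction was -0.10 (adjusted p = 0.8). In siMESH1+siATF4 vs siMESH1 ACSL4 was called lower, at -0.511 (adjusted p = 0.0093). This call was lost without siMESH1 replicate 2 (-0.448) or siMESH1+siATF4 replicate 3 (-0.492), and when centred on array medians. Against siNT ACSL4 was 0.18 in siMESH1+siATF4 cells and -0.41 in siATF4 cells (adjusted p = 0.03), neither called. By the methods' t-test after Benjamini-Hochberg adjustment neither rise of ACSL4 was called (0.071 and 0.074). ACSL5, a synthetase of the outer mitochondrial membrane, read 0.70, 0.62 and 0.60 in siMESH1+siATF4 cells, -0.42, -0.54 and -0.30 in siMESH1 cells, 0.47, 0.76 and 0.44 in siATF4 cells, and 0.08, 0.08 and -0.16 in siNT cells. It rose by 1.06 in siMESH1+siATF4 vs siMESH1 (adjusted p = 3.4e-06). Against siNT it rose by 0.64 in siMESH1+siATF4 and by 0.56 in siATF4 cells, the second of which was not called by the methods' t-test after adjustment (0.063), without siATF4 replicate 2 (0.455) or without siNT replicate 3 (0.473). The list had 4, 2 and 2 genes called in siMESH1+siATF4, siMESH1 and siATF4 cells vs siNT, beside 9.65%, 8.19% and 6.52% of all genes. The remaining calls of this list against siNT were ACSL1 (0.63) and SLC27A3 (0.53), both higher in siMESH1+siATF4 cells and named after their values were seen, and SLC27A3 lost its call without siMESH1+siATF4 replicate 1 (0.495) or siNT replicate 3 (0.484).

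In cholesterol synthesis and uptake, 16 of 23 genes were measured. ACAT2, which joins acetyl-CoA units at the start of the sterol pathway, read 0.10, 0.17 and -0.06 in siMESH1+siATF4 cells, -0.84, -0.85 and -0.74 in siMESH1 cells, 0.24, 0.09 and 0.23 in siATF4 cells, and 0.02, -0.02 and 0.00 in siNT cells. The siMESH1 arrays stood alone below the rest. ACAT2 fell by 0.81 in siMESH1 vs siNT (adjusted p = 8e-07) and rose by 0.88 in siMESH1+siATF4 vs siMESH1 (adjusted p = 7.5e-07), with an interaction of 0.69 (adjusted p = 0.0003). EBP, the sterol isomerase, fell by 0.60 in siMESH1 vs siNT (adjusted p = 1.4e-05), and TM7SF2, a sterol reductase, rose by 0.59 in siATF4 vs siNT (adjusted p = 6.2e-07). TM7SF2 was 0.415 in siMESH1+siATF4 and 0.22 in siMESH1 cells vs siNT, values that were 0.62 and 0.53 and called when scaled on the housekeeping genes. Scaled on the housekeeping genes, ACAT2 (-0.499) and EBP (-0.29) were not called in siMESH1 vs siNT, and neither was the ACAT2 interaction (0.43). The list had 0, 2 and 1 genes called in siMESH1+siATF4, siMESH1 and siATF4 cells vs siNT, beside 9.65%, 8.19% and 6.52% of all genes. Its median was 0.20 in siMESH1+siATF4, -0.03 in siMESH1 and 0.13 in siATF4 cells vs siNT, and its siMESH1 median was 0.28 when scaled on the housekeeping genes.

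For the genes that store or burn fatty acids, the shares of all genes called against siNT to read beside were 9.65%, 8.19% and 6.52% in siMESH1+siATF4, siMESH1 and siATF4 cells, with 43.1%, 41.5% and 37.8% at an unadjusted p under 0.05. In glycerolipid assembly and storage, 0 of 14 measured genes were called against siNT in limma in any silenced group, with 10, 6 and 5 at an unadjusted p under 0.05 in siMESH1+siATF4, siMESH1 and siATF4 cells. In fatty acid oxidation, 22 of 24 genes were measured and 2, 1 and 1 were called in the same order. ETFDH, which passes electrons of fatty acid oxidation to ubiquinone, read -0.45, -0.66 and -0.55 in siMESH1+siATF4 cells, -0.58, -0.71 and -0.61 in siMESH1 cells, -0.36, -0.23 and -0.58 in siATF4 cells, and -0.01, 0.09 and -0.08 in siNT cells. It fell in siMESH1+siATF4 (-0.56) and siMESH1 cells (-0.63), calls that were lost when scaled on the housekeeping genes. EHHADH, a bifunctional enzyme of peroxisomal oxidation, rose by 0.55 in siMESH1+siATF4 and by 0.56 in siATF4 cells vs siNT and was 0.48 in siMESH1 cells, under the fold minimum. EHHADH scaled on the housekeeping genes was 0.79 in siMESH1 vs siNT with an interaction of -0.75, both called, and without siMESH1+siATF4 replicate 3 its change in siMESH1+siATF4 vs siNT was 0.48 and not called. Among AMPK subunits and their kinases, which restrain fatty acid synthesis through ACACA, 0 of 10 measured genes were called in any silenced group, with 5, 6 and 3 at an unadjusted p under 0.05. Scaled on the housekeeping genes, 2, 4 and 0 glycerolipid genes, 5, 4 and 3 oxidation genes and 1, 3 and 1 AMPK genes were called higher in the same order. Under that scaling 1408, 2239 and 729 of all 11963 genes were called higher. The methods' t-test called 0 glycerolipid and 0 AMPK genes as deposited.

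**Figure D5:**
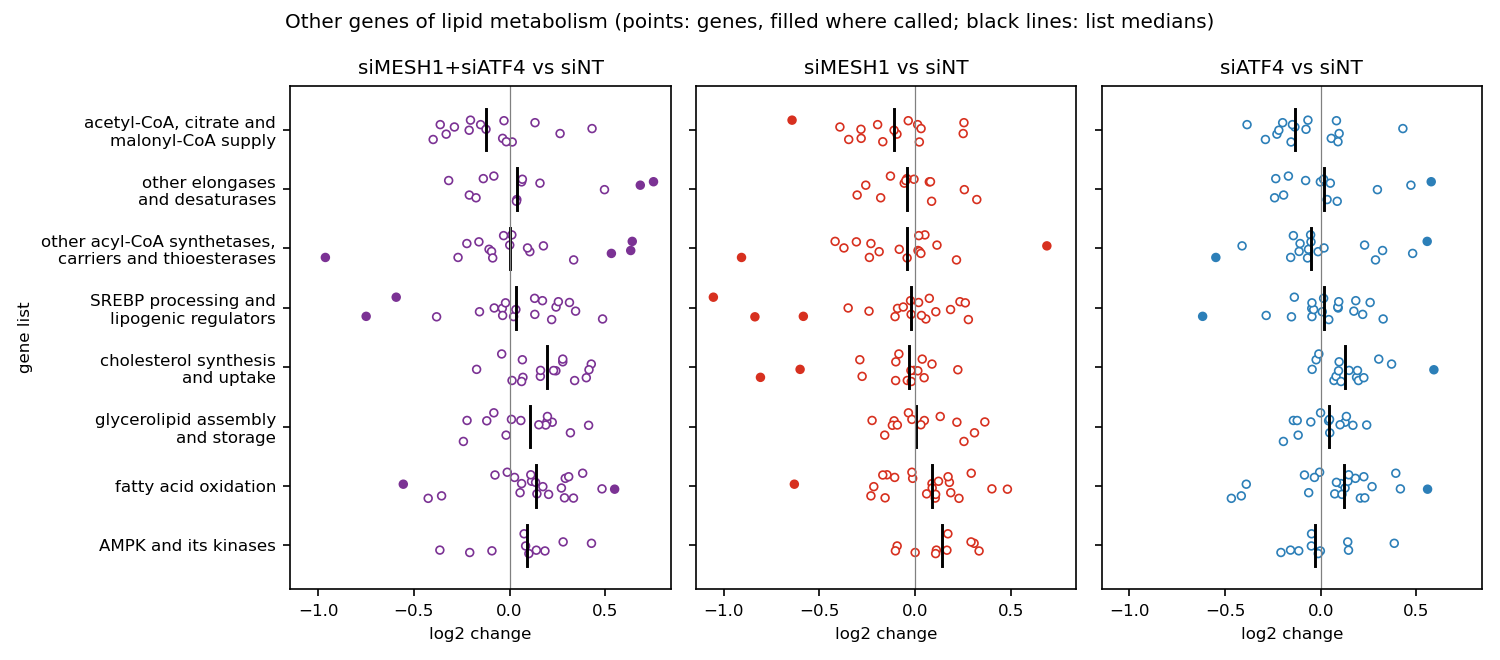
Log2 change against siNT (horizontal axis) of the measured genes of 8 lists of lipid metabolism (vertical axis) in siMESH1+siATF4, siMESH1 and siATF4 cells, as deposited. Points are genes, filled where called, and black lines are list medians. Most genes lay within the fold minimum of 0.5, and 0 genes of glycerolipid assembly or of AMPK were called, which held for this scaling and not when scaled on the housekeeping genes.

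Markers of cell types were read beside these changes. Of 11 measured leukocyte, endothelial and fibroblast markers, 0 were called against siNT in any group in limma and 0 by the methods' t-test, beside 9.65%, 8.19% and 6.52% of all genes in siMESH1+siATF4, siMESH1 and siATF4 cells. At an unadjusted p under 0.05 there were 1, 0 and 3, beside 43.1%, 41.5% and 37.8% of all genes, and the medians were 0.03, 0.01 and 0.04. Of 9 measured markers of clear cell renal carcinoma, 2, 2 and 0 were called in the same groups, with medians of 0.28, -0.02 and 0.21 beside 0.01, 0.03 and 0.02 for all genes. The called markers, named after their values were seen, were CA12, a carbonic anhydrase, at -0.77 in siMESH1+siATF4 and -1.61 in siMESH1 cells, and KRT18, a keratin, at 0.63 in siMESH1+siATF4 and -0.54 in siMESH1 cells. The siMESH1 call of KRT18 was lost when scaled on the housekeeping genes (-0.23) and without siNT replicate 2 (-0.49). The part of these markers in the changes of the lipid genes was not tested.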

How the data were processed

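Total RNA of the 12 cultures was read on Affymetrix expression arrays. The authors normalized the arrays with RMA in Affymetrix Expression Console, subtracted the siNT mean of each probe set and deposited the resulting log2 differences, whose siNT means lay within 0.00012 of 0. No version was given for these tools. RMA assumes similar signal distributions on all arrays, so a shift shared by most genes would not be seen. No gene was filtered on its level. Of 22277 probe sets, 62 were controls, 19064 carried 1 symbol in the platform table (19052 matched by Entrez identifier), 1043 several and 2108 none, and 0 array columns lacked a sample. Probe sets of a gene were averaged.

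All 11963 genes entered 1 fit of limma 3.58.1 (R 4.3.3) with 1 mean for every group and without a block, leaving 8 residual degrees of freedom with a prior of 4.32. The fit was repeated on single probe sets, and the scripts were tested on simulated data. The number of arrays, 3 a group, limits the precision. Labels call the replicates biological, and 0 pairs of arrays held identical values. The members and lists were chosen with earlier results of these data known. Named are the members, up to 3 called genes of each lipid list by largest change against siNT, the 5 genes most and least correlated with ACLY, and ATF4. Alternatives were centring on array medians or housekeeping genes, dropping probe sets that may cross-hybridise, a replicate block, fits of only the groups compared, robust eBayes, the methods' t-test and leaving out each array. Tables were prepared with Python 3.11.15, pandas 2.3.3 and numpy 2.4.6, and figures with matplotlib 3.10.9.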

Additional observations from a re-analysis of the deposited data

Results flagged for a closer look

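The response of ACLY to siMESH1 differed with and without siATF4. The interaction of 0.793 in limma was called, the siMESH1 effect being -0.66 with siATF4 and -1.45 without, and siMESH1+siATF4 cells lay below siATF4 cells on 3 of 3 arrays as siMESH1 cells lay below siNT cells. The response of FADS2, read from a single probe set, differed likewise, with an interaction of 0.661 that was called as deposited. Scaled on the housekeeping genes, the interaction was 0.402 and not called. The siMESH1 effect on FADS2 was 0.16 with siATF4, where the arrays of both groups overlapped, and -0.505 without. For both genes, a lower dose of siMESH1 in siMESH1+siATF4 cells and the loss of ATF4 cannot be told apart.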

How the results depend on the processing

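Over 63 results and 21 other settings, 1210 of 1261 values were classed as unchanged. For single genes this meant the same direction and side of the threshold, and ACLY kept both in all 137 of its values. For counts of members called it meant a count of similar size, so a count could pass although a member lost its call. Scaled on the housekeeping genes, the members called were 1 in siMESH1 vs siNT and 1 for the interaction, against 3 and 2. Directions turned under that scaling for uncalled members: in siMESH1 vs siNT ACACA 0.17, FASN 0.272, SCD 0.274 and ELOVL5 0.234, in siATF4 vs siNT FASN 0.053, SCD 0.094 and SREBF1 0.03, in siMESH1+siATF4 vs siNT ACACA 0.066, FASN 0.151, FADS2 0.137 and SREBF1 0.052, in siMESH1+siATF4 vs siATF4 SREBF1 0.022, in siMESH1 vs siATF4 ELOVL5 0.067, and for the interaction ACACA -0.047, FASN -0.174 and ELOVL5 -0.111. Centred on array medians, ELOVL5 was -0.009 in siATF4 vs siNT and ACACA 0.009 in siMESH1+siATF4 vs siMESH1. Dropping probe sets that may cross-hybridise leaves 3 members, ACACA, ELOVL5 and SREBF1, so 0 were called in siMESH1 vs siNT, siMESH1+siATF4 vs siNT, siMESH1+siATF4 vs siATF4, siMESH1 vs siATF4 and the interaction, by construction.

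Leaving out 1 array at a time, the members called ranged from 2 to 3 in siMESH1 vs siNT and from 0 to 1 in siMESH1+siATF4 vs siMESH1. Uncalled members that crossed 0 were FASN in siMESH1 vs siNT (-0.116 to 0.016), siMESH1+siATF4 vs siMESH1 (-0.073 to 0.059), siMESH1+siATF4 vs siATF4 (-0.008 to 0.087) and siMESH1 vs siATF4 (-0.012 to 0.121), ELOVL5 in siATF4 vs siNT (-0.042 to 0.047), ACACA in siMESH1+siATF4 vs siMESH1 (-0.018 to 0.028), SREBF1 in siMESH1+siATF4 vs siATF4 (-0.072 to 0.016) and SCD in siMESH1 vs siATF4 (-0.008 to 0.064). Replicate numbers did not pair the arrays: 0 of 18 same-numbered pairs correlated above 0.1 (-0.191 to 0.095) and 6 correlated best with their own number. A fit with the replicate block left every member's call as it was, ACLY staying at -1.452 in siMESH1 vs siNT (adjusted p = 2.6e-08), with 978 genes called in all against 980.

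Over all genes, housekeeping scaling called 2539 against 980 in siMESH1 vs siNT, 1790 against 1154 in siMESH1+siATF4 vs siNT and 1476 against 516 for the interaction, and the share called lower was 21.3% against 54.4% in siMESH1+siATF4 vs siNT, 30.4% against 61.8% in siATF4 vs siNT, 66.7% against 44% in siMESH1+siATF4 vs siMESH1, 63.9% against 78.5% in siMESH1+siATF4 vs siATF4, 27% against 54.8% in siMESH1 vs siATF4 and 86.8% against 19.8% for the interaction. The methods' t-test after Benjamini-Hochberg called 126 against 195 genes in siMESH1+siATF4 vs siATF4. The cause was not tested. Without absolute signal, probe sets near background could not be told from expressed ones, and changes of dim ones are compressed.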
